A study of Mus musculus with 20 samples.

Results

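NF-kB is a family of dimeric transcription factors that drives inflammatory, survival and synaptic gene programs. In resting cells the dimers are held in the cytoplasm by IkB inhibitors, and a signal from cytokine or Toll-like receptors activates the IkB kinase, which marks the inhibitor for destruction and frees the dimer to enter the nucleus. In the brain the pathway operates in microglia, astrocytes, endothelial cells and neurons, and much of its regulation acts on protein location and stability, which RNA levels do not report. The genes described here are 10 core components, identified by symbol among the 48709 genes of the deposited table: the 5 subunits Nfkb1, Nfkb2, Rel, Rela and Relb, the 3 inhibitors Nfkbia, Nfkbib and Nfkbie, and the kinase subunits Ikbkb and Ikbkg. All 10 were measured, and all 10 were among the 19797 genes that passed the filter on low counts.

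RNA-seq was performed on the hippocampus of 20 young adult C57BL/6 mice (C57BL/6J in the study's methods), 5 in each of 4 groups. The dams of the nPM groups inhaled nano-sized particulate matter collected from urban traffic air on 3 days of each week, 5 h a day, from gestational day 2 until birth, and the dams of the control groups inhaled filtered air. The labels give the nPM concentration as 300 mg/m3, whereas the study's methods give the same figure in micrograms. At collection, females were 17.7 to 18.3 weeks old (controls) or 18.0 to 18.3 (nPM) and males 18.6 to 19.1 (controls) or 18.9 to 19.1 (nPM). Ages of females and males did not overlap, so that a difference between the sexes cannot be told apart from age in these samples. The methods describe injections of the thymidine analog EdU in males and add that every animal was injected, so whether the females of this series received it is uncertain. The dam was the exposed unit, and the labels do not tie samples to litters, so p-values measure the spread between these hippocampi. The study's methods give 5 litters per exposure group, so the samples of each exposure include littermates. No fit here models litter.

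Total counts were between 19092067 and 38663408 per sample. The 6 markers of hippocampal neurons were detected in every sample. Choroid plexus markers summed to between 38.5 and 8759 CPM (counts scaled to the sample's total), and 7 samples exceeded 1000 CPM: 3 control males, 2 nPM males and 2 nPM females. In whole tissue, fewer cells of a type cannot be told apart from less RNA per cell.

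The subunits are distinguished by what their proteins can do. Rela, Relb and Rel carry a transactivation domain, whereas Nfkb1 and Nfkb2 encode long precursors that are processed to DNA-binding partners without one. Rela with the Nfkb1 product forms the classical dimer, and Relb with the Nfkb2 product forms the dimer of the alternative pathway. On mm10 the subunit genes lie at chr3:135584655-135691547 (Nfkb1, minus strand), chr19:46304737-46312090 (Nfkb2, plus), chr11:23736847-23770970 (Rel, minus), chr19:5637483-5648130 (Rela, plus) and chr7:19606217-19629438 (Relb, minus). The inhibitors Nfkbia, Nfkbib and Nfkbie encode IkB alpha, beta and epsilon and lie at chr12:55489411-55492647 (minus), chr7:28758251-28767512 (minus) and chr17:45555716-45563169 (plus). Ikbkb encodes the catalytic IKK beta at chr8:22659212-22706589 (minus), and Ikbkg encodes the scaffold NEMO at chrX:74393290-74453854 (plus). Ikbkg shares 19712 bases with G6pdx on the opposite strand and Nfkbib shares 778 bases with Sirt2 on the opposite strand. Whether counting used strand is not given in the sources used here, so reads of these overlaps cannot be told apart. Nfkb1 shares 3897 bases with Gm43430 on the same strand, where strand would not help. The mean count was 814.4 for Nfkb1 and 65.8 for Gm43430.

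NF-kB is known to drive the genes of several of its own components, a feedback loop best known for Nfkbia. RefSeq promoter windows (GRCm38.p6, the mm10 assembly) were found for 7 of the 10 genes, and the 250 bases before the start were searched on both strands for the 10-base kappa B consensus: 3 G, a purine, any base, an A or T, a pair of pyrimidines and a closing pair of C. Windows of Nfkb2, Rel, Nfkbia and Nfkbie held a match, and those of Rela, Nfkbib and Ikbkg did not. The start is that of the RefSeq entry, which can differ from the gene model given above. The window of Nfkbib (chr7:28766645-28766894) lies inside its gene model, and that of Rela (chr19:5637291-5637540) runs into its own. Sequence before those gene models' own starts was therefore not, or not fully, searched. Among 32851 windows of all genes, 3.90% held a match. The 4 windows with a match are shown because they carry the letters of the pathway's own binding sequence, with matched stretches in capitals, written 5′ to 3′ on the gene's strand. They span chr19:46304487-46304736 (plus) for Nfkb2, chr11:23770970-23771219 (minus) for Rel, chr12:55492648-55492897 (minus) for Nfkbia and chr17:45555450-45555699 (plus) for Nfkbie.
Nfkb2: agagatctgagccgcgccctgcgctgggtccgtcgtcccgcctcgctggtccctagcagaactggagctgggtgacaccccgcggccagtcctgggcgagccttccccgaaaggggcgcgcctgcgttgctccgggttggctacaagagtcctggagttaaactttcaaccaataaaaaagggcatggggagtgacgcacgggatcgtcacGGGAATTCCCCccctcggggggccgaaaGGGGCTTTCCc
Rel: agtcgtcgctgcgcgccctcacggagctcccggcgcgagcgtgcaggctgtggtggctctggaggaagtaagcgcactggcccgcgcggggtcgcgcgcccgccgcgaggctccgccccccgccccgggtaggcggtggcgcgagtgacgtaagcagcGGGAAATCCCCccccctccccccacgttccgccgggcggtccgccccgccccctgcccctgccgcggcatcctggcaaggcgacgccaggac
Nfkbia: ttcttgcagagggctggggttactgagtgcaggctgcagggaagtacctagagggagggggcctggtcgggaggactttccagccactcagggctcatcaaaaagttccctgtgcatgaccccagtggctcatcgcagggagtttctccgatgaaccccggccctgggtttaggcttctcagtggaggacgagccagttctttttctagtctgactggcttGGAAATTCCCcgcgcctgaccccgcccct
Nfkbie: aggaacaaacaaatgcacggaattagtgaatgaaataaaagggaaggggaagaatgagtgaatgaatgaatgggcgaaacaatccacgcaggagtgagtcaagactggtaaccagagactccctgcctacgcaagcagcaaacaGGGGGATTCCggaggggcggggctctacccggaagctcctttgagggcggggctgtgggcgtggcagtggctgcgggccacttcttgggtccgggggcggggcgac
The stretches of Nfkb2 lie 39 to 29 and 11 to 2 bases before the start, that of Rel 92 to 82, that of Nfkbia 29 to 20 and that of Nfkbie 106 to 97. Where matches on both strands overlapped they were merged into 1 stretch. A match is a description of letters, not a measured binding site.

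Per length of the gene model, the inhibitor Nfkbia was the most abundant component and the subunit Nfkb2 the least. Levels of different genes were compared per length, as RPKM (counts scaled to the length of the gene model and to the total count of the sample). Mean RPKM over the 20 samples was 13.2 for Nfkbia, 7.19 for Ikbkg, 3.60 for Rela, 2.70 for Nfkbib, 2.27 for Nfkb1, 1.94 for Ikbkb, 0.949 for Rel, 0.915 for Relb, 0.793 for Nfkbie and 0.454 for Nfkb2. Nfkbia was thus above 81.6% of the genes past the filter, Rela above 51.6% and Nfkb2 above 15.4%. Nfkbia exceeded Ikbkg, Ikbkg exceeded Rela, and Ikbkb exceeded Rel in 20 of 20 samples with ranges that did not overlap. Rel and Relb could not be ordered: Rel was higher in 11 of 20 samples and in 2 of the 4 groups. The other neighbours had overlapping ranges, and the higher of the pair was higher in 16 to 20 of 20 samples.

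**Figure D1:**
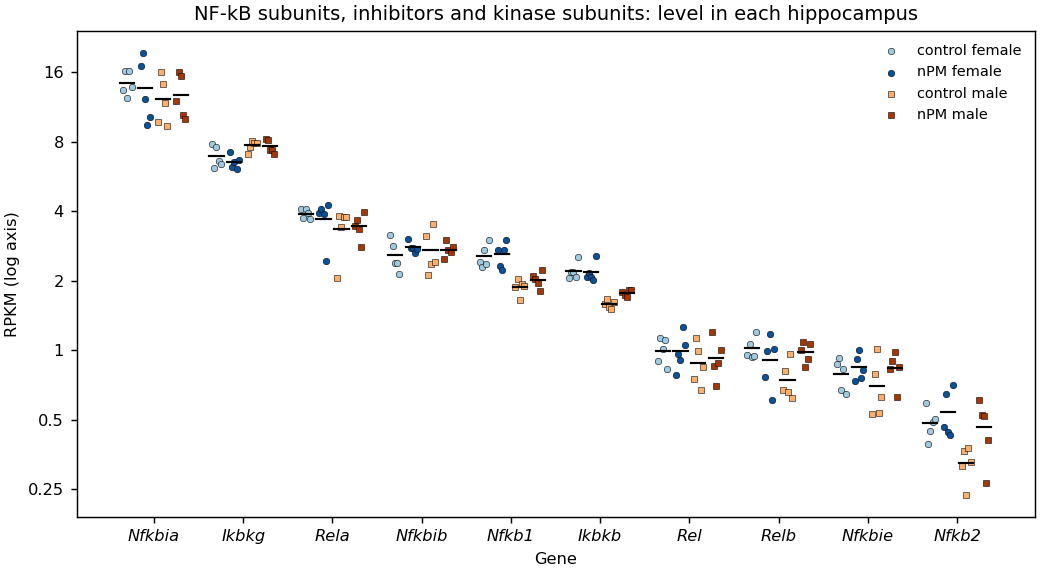
Level of each gene as RPKM on a log axis, with 1 point per hippocampus and a bar at each group mean of 5 samples; genes are ordered by mean level. Nfkbia stands highest at a mean of 13.2 RPKM and Nfkb2 lowest at 0.454, and Rel and Relb lie side by side.

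Within the family, Rela contributed 43.9% ± 4.18 (SD, n = 20) of the summed RPKM of the 5 subunits and Nfkb1 27.7% ± 3.38. The other subunits contributed 11.7% ± 2.18 (Rel), 11.2% ± 1.71 (Relb) and 5.49% ± 1.13 (Nfkb2). Nfkbia made up 78.6% ± 3.94 of the 3 inhibitors, Nfkbib 16.6% ± 3.64 and Nfkbie 4.81% ± 0.889. Per length, inhibitor RNA exceeded subunit RNA in every sample: the ratio of RPKM sums was 2.06 ± 0.367, from 1.38 to 2.59. These values rest on the lengths of the gene models, which were 12061 bases for Nfkb1, 2716 for Rela and 1577 for Nfkbia. In CPM, which ignores length, the order changed: the mean was 27.3 for Nfkb1, 20.9 for Nfkbia and 9.79 for Rela. The shares and the ratio are therefore statements per length only.

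Nfkbia was also the member that varied most between samples of the same group for its depth. Its pooled within-group coefficient of variation was 23.4%, where counting alone gives 4.14%. Of 2928 genes with a mean count within 1.5-fold of its own, 89.6% varied less, and their median was 11.98%. In nPM females Nfkbia ranged from 14.8 to 30.4 CPM, a spread as wide as in any group. Ikbkb and Ikbkg were steady, at 7.04% and 7.61%, and Nfkb1 was at 10.04%. Rel (18.4%) and Rela (16.3%) lay near the medians of genes with like counts (17.6% and 15.1%).

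The first question was whether gestational nPM changed these genes in the adult hippocampus. No component passed the study's threshold of an unadjusted p under 0.005 by limma-voom, whether the sexes were fitted together or apart. Over all genes this threshold was passed by 0.141% in the fit of all 20 samples, by 0.207% among males and by 0.0909% among females. edgeR's quasi-likelihood test and DESeq2 also called 0 of 10 in each comparison. At an unadjusted p under 0.05, limma-voom gave 0 of 10 with both sexes, where 2.10% of all genes passed, 2 of 10 in males, where 4.28% passed, and 0 of 10 in females, where 1.99% passed. With both sexes, edgeR and DESeq2 each placed 1 gene, Nfkb2, under 0.05, where they placed 2.10% and 2.22% of all genes. Every Benjamini-Hochberg adjusted p of the 10 genes was at least 0.963 by limma-voom, and 0 of the 19797 genes passed an adjusted p of 0.05 in any of these comparisons.

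With both sexes together, the log2 fold change (nPM minus control, sex as covariate) was positive for 7 of the 10 genes, where 47.0% of all genes were positive. Its median was 0.06 beside -0.01 over all genes tested. With 0 of 10 called, no direction is read from this count. The median half-width of the 95% interval over all genes was 0.23. That of Nfkb1 was narrower, and those of Rela and Rel were close to it. Nfkb1 had a log2 fold change of 0.05 (95% interval -0.07 to 0.18), Rela -0.03 (-0.24 to 0.18) and Rel 0.02 (-0.22 to 0.26). The kinase subunits had the tightest estimates, 0.06 (-0.04 to 0.16) for Ikbkb and -0.05 (-0.15 to 0.04) for Ikbkg. Among the inhibitors, Nfkbia was at -0.03 (-0.31 to 0.24), Nfkbib at 0.06 (-0.14 to 0.25) and Nfkbie at 0.19 (-0.08 to 0.46). The alternative pathway's pair had values of 0.28 (-0.03 to 0.60) for Nfkb2 and 0.12 (-0.14 to 0.37) for Relb. Nfkb2 had the smallest p of the 10 (limma-voom p = 0.0753, exact permutation p = 0.0538), and its mean count of 44.8 makes its interval one of the widest.

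**Figure D2:**
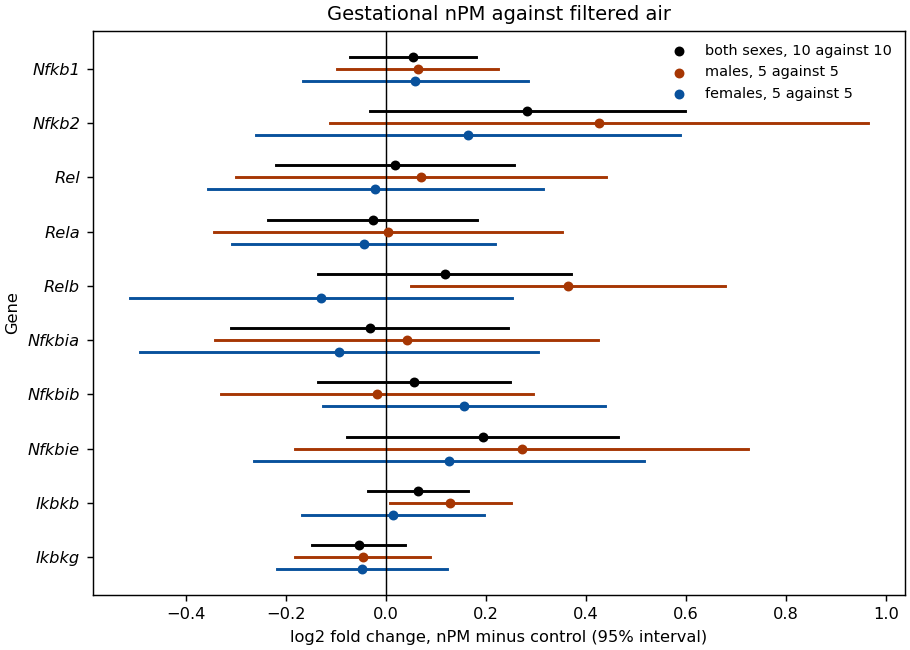
Estimated nPM effect on each gene as log2 fold change (nPM minus control), with points for estimates and lines for 95% intervals, in both sexes (10 against 10) and in each sex (5 against 5). Intervals of Relb and Ikbkb in males lie above 0 without adjustment, and all other intervals cross 0.

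The 2 genes under 0.05 in males were Relb and Ikbkb. Relb in control males was 2.60, 3.15, 2.55, 3.75 and 2.41 CPM, and in nPM males 3.91, 4.20, 3.30, 3.55 and 4.15 CPM. Ranges overlapped through the control male at 3.75. The log2 fold change was 0.37 (95% interval 0.05 to 0.68, limma-voom p = 0.0262, adjusted p = 0.963; exact permutation p = 0.0238). Relb in the other sex was 3.71, 4.16, 3.65, 3.66 and 4.66 CPM in controls and 2.97, 3.86, 4.56, 2.36 and 3.94 CPM after nPM. There the estimate was -0.13 (-0.51 to 0.25), with overlapping ranges.

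The nPM effect on Relb differed between males and females by 0.51 on the log2 scale (male minus female effect, 95% interval 0.05 to 0.97; limma-voom p = 0.031, adjusted p = 0.987; exact permutation p = 0.0203). It was the only one of the 10 genes with an interaction p under 0.05, where 3.79% of all genes had one. Under 0.005 were 0 of 10, where 0.217% of all genes were. edgeR and DESeq2 gave the same 2 counts. They placed 4.89% and 4.86% of all genes under 0.05, and 0.333% and 0.451% under 0.005. Without the samples over 1000 CPM of choroid plexus markers the interaction of Relb was no longer under 0.05. Leaving out 1 sample at a time kept the male p of Relb under 0.05 in 5 of 10 fits, with estimates of 0.30 to 0.47.

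Ikbkb in control males was 30.2, 31.7, 29.5, 28.9 and 31.0 CPM, and in nPM males 34.0, 33.1, 32.4, 34.9 and 34.9 CPM. Every nPM male was above every control male, which is the case in one direction or the other for 0.662% of all genes. The change was small, with a log2 fold change of 0.13 (0.01 to 0.25, limma-voom p = 0.038, adjusted p = 0.963; exact permutation p = 0.00794, the smallest that 5 against 5 can give). Without the samples over 1000 CPM of choroid plexus markers the estimate was 0.15 and no longer under 0.05, and with 1 sample left out the p was under 0.05 in 2 of 10 fits. In females Ikbkb did not separate by exposure, as 0 of the 10 genes did where 0.349% of all genes did, at 39.4 to 48.3 CPM in controls and 38.6 to 48.7 CPM after nPM, with an estimate of 0.01 (-0.17 to 0.20).

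**Figure D3:**
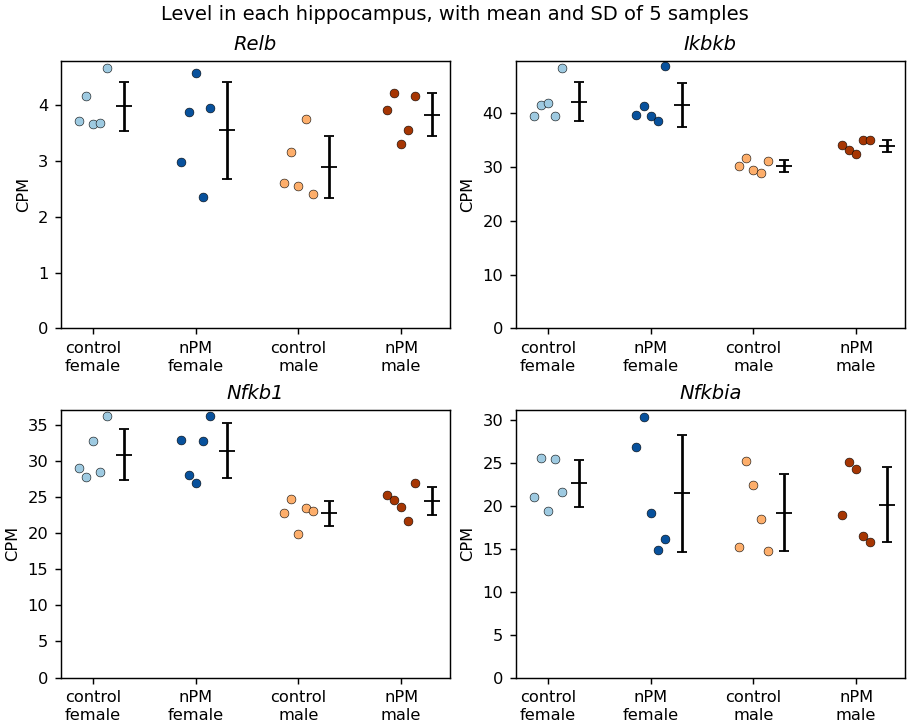
CPM of Relb, Ikbkb, Nfkb1 and Nfkbia in each hippocampus, with points for samples and a bar for the mean and SD of 5 samples per group; the axes start at 0. Ikbkb separates nPM males from control males by a small step, Nfkb1 and Ikbkb lie lower in males than in females, and Nfkbia is scattered within every group.

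Genes up- and downstream of these components were read from 4 lists. Of the receptors and adaptors, 19 of 21 passed the filter, of the kinases and ubiquitin enzymes 17 of 17, of the other inhibitors and feedback regulators 12 of 13, and of the NF-kB target genes 13 of 25. The targets below the filter were the cytokines and chemokines Il1b, Il6, Tnf, Il12b, Ccl2, Ccl5, Cxcl1 and Cxcl2 and the genes Sele, Lcn2, Nos2 and Saa3. By limma-voom, 0 genes of these lists had p under 0.005 for nPM in any of the 4 fits (both sexes, each sex, interaction). edgeR and DESeq2 each called 1 of the 13 targets, Cxcl10, with both sexes, where they called 0.131% and 0.218% of all genes, and again in females, where they called 0.121% and 0.279%. At an unadjusted p under 0.05 by limma-voom, 1 of 12 other inhibitors (Tnfaip3) and 1 of 13 targets (Cxcl10) passed with both sexes, both positive, beside 2.10% of all genes. In males 0 genes of the 4 lists passed, beside 4.28%. In females 3 of 13 targets passed (Cxcl10, Vcam1 and Icam1), all positive, beside 1.99%, and for the interaction 2 of 13 (Vcam1 and Irf1), both negative, beside 3.79%.

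Cxcl10, an interferon-inducible chemokine, had the smallest p of these lists with both sexes. Its counts were 0 to 5 in control females and 3 to 23 in nPM females, and 2 to 10 in control males and 4 to 23 in nPM males. At such counts the groups overlapped in both sexes. The filter had a minimum count of 10, and control samples hardly reached it, so Cxcl10 passed mainly through nPM samples. A gene kept in this way tends to be higher after nPM. Its fold changes, p-values and calls, also those above, are therefore descriptions and not support for an nPM effect. The fitted log2 fold change with both sexes was 1.45 (0.49 to 2.42, limma-voom p = 0.00505, adjusted p = 0.9998; exact permutation p = 0.00444). Among females alone it was 2.26 (0.75 to 3.76, p = 0.0067, exact permutation p = 0.0159).

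Tnfaip3, which encodes the feedback deubiquitinase A20, had values of 4.92 ± 0.908 CPM in control females and 6.17 ± 1.14 CPM in nPM females (SD, n = 5). In males it was 5.32 ± 0.623 CPM in controls and 5.97 ± 0.485 CPM after nPM. The estimate with both sexes was 0.23 (0.03 to 0.44, limma-voom p = 0.0297, adjusted p = 0.9998; exact permutation p = 0.0289). The endothelial adhesion molecules Vcam1 and Icam1 had estimates of 0.60 (limma-voom p = 0.0382, exact permutation p = 0.119) and 0.63 (0.0384 and 0.0714) in females and of -0.25 and 0.01 in males. Their interaction had exact permutation p = 0.074 for Vcam1 and 0.181 for Icam1. The median of Vcam1 in females was 25.4 CPM in controls and 28.2 CPM after nPM, with a highest nPM value of 71.2 CPM. That value came from nPM female 1, the sample with the most choroid plexus signal (8759 CPM). The highest Vcam1 values in control males (58.3 CPM) and nPM males (50.8 CPM) also came from samples over 1000 CPM of choroid plexus markers. The part of choroid plexus in the Vcam1 estimates was not tested. Fits with covariates or with samples left out were not made for list genes. Irf1, an interferon response factor, had an interaction of -0.59 (limma-voom p = 0.0192, exact permutation p = 0.0255), from 0.42 in females and -0.18 in males. Next in order were the adaptor kinase Ripk1 with both sexes (0.15, exact permutation p = 0.0621), the protease Plau for the interaction (-0.58, exact p = 0.0888), and in males the inhibitor Nkiras2 (-0.22, exact p = 0.111) and Chuk (0.10, exact p = 0.0556), which encodes IKK alpha.

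The second comparison was between the sexes in control animals. Nfkb1 and Ikbkb were lower in males, and both passed p under 0.005. The count of 2 of 10 stands beside 18.6% of all genes, so the share among these components was near that of the whole table. Nfkb1 was 29.0, 27.8, 32.7, 28.5 and 36.2 CPM in control females and 22.8, 24.6, 19.9, 23.4 and 23.0 CPM in control males. All 5 males lay below all 5 females, with a log2 difference (male minus female) of -0.37 (95% interval -0.57 to -0.18, limma-voom p = 0.0012, adjusted p = 0.0115; exact permutation p = 0.00794). Ikbkb was 39.4, 41.6, 41.8, 39.5 and 48.3 CPM in control females, against 28.9 to 31.7 CPM in control males, a difference of -0.42 (-0.58 to -0.25, p = 0.000149, adjusted p = 0.0046; exact permutation p = 0.00794).

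Ikbkg, which is X-linked, went the other way. It was 50.0 to 63.6 CPM in control females and 57.6 to 65.1 CPM in control males, a difference of 0.21 (0.06 to 0.37, limma-voom p = 0.0121, adjusted p = 0.0469; exact permutation p = 0.0159). With it, 3 of 10 genes passed an adjusted p of 0.05, where 26.4% of all genes did. Nfkb2 ranged from 1.30 to 1.95 CPM in control females and from 0.780 to 1.24 CPM in control males, without overlap, and its difference was -0.51 (p = 0.0192, adjusted p = 0.0644; exact permutation p = 0.00794). Ranges were separate for 3 of the 10 genes, Nfkb1, Nfkb2 and Ikbkb, where 19.8% of all genes had separate ranges. Relb had a difference of -0.38 (p = 0.0288, adjusted p = 0.0856; exact permutation p = 0.0317), and the remaining 5 genes had p-values between 0.179 and 0.468. At an unadjusted p under 0.05 the count was 5 of 10, where 39.6% of all genes passed.

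The 10 nPM animals are other mice, so they measure the sex difference again. In them Nfkb1 differed by -0.34 (limma-voom adjusted p = 0.0323), Ikbkb by -0.27 (adjusted p = 0.0251) and Ikbkg by 0.24 (adjusted p = 0.0365). They were the 3 of 10 genes with p under 0.005, where 11.0% of all genes had one. The same 3 of 10 had separate ranges, where 11.2% of all genes did. Since these 3 already differed in controls, the shares of all genes are no like measure for them alone. The count at an unadjusted p under 0.05 was also 3 of 10, where 29.0% of all genes passed. Ikbkg was 49.4 to 58.3 CPM in nPM females and 57.3 to 66.8 CPM in nPM males, which overlapped on this unscaled measure and separated after TMM scaling. Nfkb2 (-0.22, exact permutation p = 0.413) and Relb (0.14, exact p = 0.397) did not pass there, and for Relb the sign was the opposite of that in controls. The ratio of Ikbkg to Ikbkb RPKM was 3.16 ± 0.502 in females and 4.86 ± 0.349 in males of the filtered-air group, and 3.02 ± 0.313 in females and 4.31 ± 0.361 in males of the nPM group (SD, n = 5 each), with the highest female at 3.80 and the lowest male at 3.86.

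**Figure D4:**
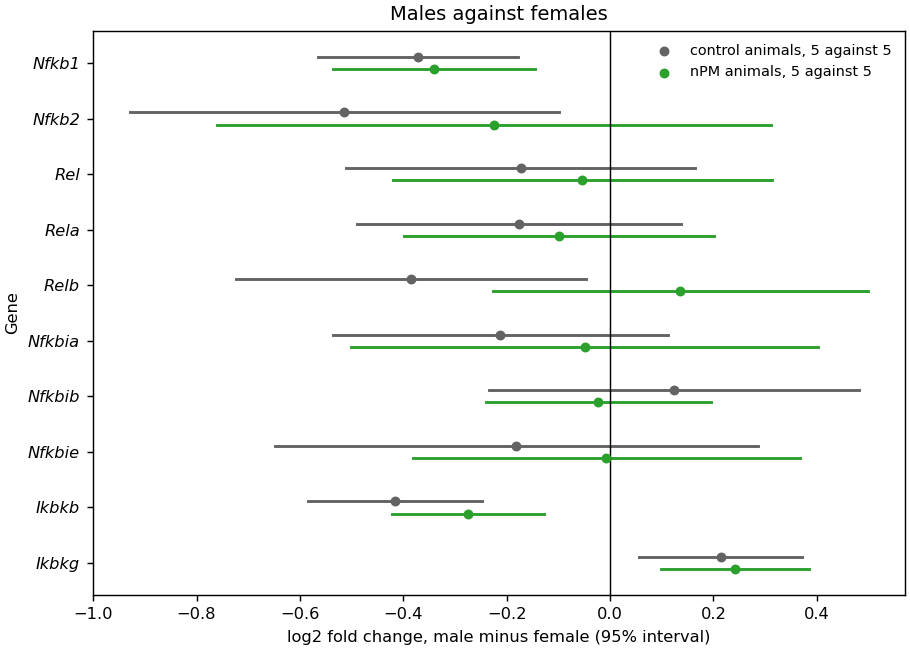
Sex difference of each gene as log2 fold change (male minus female), with points for estimates and lines for 95% intervals, in 10 control animals and in 10 nPM animals. Nfkb1 and Ikbkb lie below 0 and Ikbkg above 0 in both sets, whereas Relb lies on opposite sides.

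Other measures moved with sex in the control animals. The summed level of 6 endothelial markers was 144.5 to 166.0 CPM in control females and 111.0 to 133.9 CPM in control males, without overlap, and 8 microglia markers summed to 215.2 to 269.7 CPM in control females and 269.4 to 315.0 CPM in control males. With the microglia sum as a covariate, neither Nfkb1 (-0.36) nor Ikbkb (-0.40) passed p under 0.005. Both estimates hardly moved, and limma-voom p was 0.0279 and 0.00839. Ikbkg fell from 0.21 to 0.13 and was no longer under 0.05. The microglia sum nearly separated the sexes in controls, so this fit can hardly tell the 2 apart. Without the samples over 1000 CPM of choroid plexus markers, which left 5 females and 2 males, the differences of Nfkb1 and Ikbkb were -0.43 and -0.40, and again neither passed. The part of cell composition in the sex difference was not tested beyond these fits. By limma-voom, 3 of 17 kinases and ubiquitin enzymes passed p under 0.005 in control animals (17.6%, beside 18.6% of all genes). Of the other lists 0 of 19 receptors and adaptors, 0 of 12 inhibitors and 0 of 13 targets did. The 3 were Rnf31 (-0.46, adjusted p = 0.0071), a subunit of the linear ubiquitin ligase that acts on NEMO, Chuk (-0.29, adjusted p = 0.014) and the ubiquitin enzyme partner Ube2v1 (-1.01, adjusted p = 0.0156). Ube2v1 had only 10 to 60 counts per control sample and has a close paralog, so its assignment of reads is uncertain. At the same threshold edgeR also called the target Vcam1 (1 of 13), beside 19.4% of all genes. The highest Vcam1 value among controls was in a male over 1000 CPM of choroid plexus markers. DESeq2 also called Ube2n (4 of 17 kinases and ubiquitin enzymes), Commd1 (1 of 12 inhibitors), Vcam1 and Sod2 (2 of 13 targets). It called 25.1% of all genes.

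Whether the components varied together was asked over all 45 pairs. Over the 20 samples, 3 pairs passed an adjusted permutation p of 0.05, and these were the pairs among Nfkb1, Ikbkb and Ikbkg, the genes that differed between the sexes. Since these genes differed by sex, the correlation was taken within each sex (n = 10). Nfkb1 with Ikbkb had r = 0.65 in females (Spearman 0.58; permutation p = 0.0404, adjusted over 45 pairs 0.616) and r = 0.30 in males (Spearman 0.48; permutation p = 0.395). Ikbkb with Ikbkg had r = -0.54 in females and -0.49 in males (permutation p = 0.0869 and 0.153), and Nfkb1 with Ikbkg had r = -0.11 and -0.46 (permutation p = 0.745 and 0.183). Within a sex 0 of 45 pairs passed the adjusted p, with 2 pairs in females and 3 in males at an unadjusted p under 0.05.

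For each component, the protein-coding genes with the most similar level over the 20 samples were sought among 15006 genes past the filter, as a description that includes group differences. Rela was most like Abca2 (r = 0.90) and Hhatl (0.88), with 0.91 and 0.92 over deviations from the group means. Spearman's rho over the 20 samples was lower for both, at 0.54 and 0.55. Nfkbia was most like Plekhf1 (0.87) and Arl4d (0.83), with 0.90 and 0.86 over deviations. Rel was most like the immediate early gene Fos (0.80, and 0.83 over deviations) and March11 (0.79). Nfkb1 with Secisbp2 (0.95) and Arnt (0.93), Ikbkb with Safb2 (0.96) and Sfswap (0.95), and Ikbkg with Tmem18 (0.93) and Nsun3 (0.90) had higher r, and these genes had many peers: 307, 640 and 138 genes exceeded r = 0.80 with them. Nfkbie was most like the receptors Mchr1 (0.81) and Chrm3 (0.72), Relb like Zglp1 (0.85) and Cog1 (0.77), and Nfkb2 like Ccm2l (0.79) and Vps35l (0.78). Zglp1 and Ccm2l had mean counts of 10.5 and 24.5, where counting error is large. Nfkbib had no close match, with Rbfa and Samm50 at 0.65.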

How the data were processed

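The authors depleted ribosomal RNA (RiboZero Gold), trimmed reads where needed (Trimmomatic), aligned reads with HISAT2 (genome mm10) and obtained counts per Gencode M11 gene from featureCounts 1.5.0-p3. They deposited whole-number counts of 48709 genes in 20 samples, not normalized, and the gene lengths with the authors' mean RPKM over all samples, which was used only to check the RPKM computed here. Groups were read from the sample titles. The members and lists were chosen with earlier results of these data known.

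Genes were filtered by filterByExpr over the 4 groups (minimum count 10, total 15), which kept 19797. TMM factors (edgeR 4.0.16) and limma-voom (limma 3.58.1, R 4.3.3) were fitted across all genes after a check on simulated counts, and every p without another name in the text is from limma-voom, two-sided. The threshold was an unadjusted p under 0.005, as in the study, beside a Benjamini-Hochberg adjusted p under 0.05. Single genes were also compared by exact permutation of log2 CPM (252 groupings within a sex, 63504 over both), and correlations by 100000 permutations. CPM and RPKM printed for samples carry no TMM scaling. Named were all 10 members and list genes with p under 0.005 by limma-voom, edgeR or DESeq2. So were the 3 list genes of smallest p in each fit and the 2 genes most like each member. Alternatives were DESeq2 1.42.0, edgeR's quasi-likelihood test, RLE and upper quartile scaling, no filter, covariates, a replicate block and leaving out samples. At total counts of 19092067 to 38663408, the mean of 44.8 counts of Nfkb2 gives a counting error of 15.7%, and the 1785 of Ikbkg 2.45%. No replicate pair matched within counting noise. Correlations of the members with cell type marker lists are not reported here.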

Additional observations from a re-analysis of the deposited data

Results flagged for a closer look

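Of 40 combinations of gene and group, 4 had a sample whose gap to its neighbour exceeded Dixon's 95% limit of 0.71 of the group's range, where chance gives about 2. Rela was low in 1 control male, at 5.57 CPM beside 9.26 to 10.4 CPM in the other 4, and in 1 nPM female, at 6.60 CPM beside 10.5 to 11.5 CPM. Ikbkb was high in 1 control female, at 48.3 CPM beside 39.4 to 41.8 CPM, and in 1 nPM female, at 48.7 CPM beside 38.6 to 41.3 CPM. Without that control female the sex difference of Ikbkb in controls was -0.36. No member's interaction of sex and exposure had p under 0.005 by limma-voom.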

How the results depend on the processing

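The count of members called for nPM stayed at 0 of 10 at p under 0.005 under every alternative, with both sexes, in each sex and for the interaction. For the sex difference in controls it was 2, beside 18.6% of all genes. It was 3 with DESeq2 (25.1% of all genes), in the 10 nPM samples (11.0%) and with 1 fit of the 4 groups. In each of them Ikbkg joined Nfkb1 and Ikbkb. That count was 0 with the microglia covariate and 0 without the samples over 1000 CPM of choroid plexus markers, and from 1 (without control female 3, where Nfkb1 missed the threshold) to 2 with 1 sample left out. Nfkb1 and Ikbkb stayed under an unadjusted p of 0.05 with that covariate, which nearly separated the sexes in controls, and with that exclusion. For the fit of the 4 groups, the covariate, the exclusion and the left-out samples no share of all genes was computed. These counts therefore stand alone. Relb reversed from -0.38 to 0.14 in the nPM samples. The choroid plexus exclusion, the sex difference in nPM samples and upper quartile scaling were chosen after seeing the data. The exclusion turned Rela with both sexes to 0.034 and Ikbkb in females to -0.014. Of the estimates printed in the text, leaving out 1 sample gave ranges across 0 with both sexes for Rel (-0.039 to 0.070), Rela (-0.10 to 0.026) and Nfkbia (-0.085 to 0.026), and in females for Ikbkb (-0.024 to 0.068). Over all members and fits, 22 of 490 values under the other alternatives and 52 of 700 with 1 sample left out changed sign, none of them called. The 3 correlated pairs fell to 0 over deviations from the group means, to 0 in females and to 0 in males (the split by sex was chosen after seeing the data). By CPM, which ignores length, 3 of 10 members kept their rank of level, and with TMM scaling all 10 did. The cause of these changes was not tested. Same-numbered samples showed no general tendency to deviate together (r from -0.42 to 0.28 over 30 pairs, 5 best with their own number). This check gave no sign that the numbers pair samples, but it cannot exclude a pairing by litter or handling. With the replicate block the counts of calls did not change, and Relb in males had 0.36, no longer under an unadjusted p of 0.05. Over all genes, DESeq2 placed more under 0.005 than limma-voom for nPM, 43 against 28 with both sexes, 113 against 41 in males, 55 against 18 in females and 89 against 43 for the interaction, where edgeR placed 66. Low depth limits Nfkb2, Nfkbie and Relb most.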
